A study of Mus musculus with 30 samples.

Results

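The fasting response of mouse liver (LIV) was measured on 9 of the 30 microarrays of the series, 4 from fed and 5 from fasted mice. Members were taken by their labels, as the liver arrays of the fed and the fasted group. Fed LIV 4, which the study treated as an outlier, was left out, and all 18781 genes with a probe set of their own were followed. The series holds 3 tissues of the same design, epididymal white adipose tissue (WAT), LIV and skeletal muscle (SM), each with 5 arrays per diet. All mice were male C57Bl/6 (C57Bl/6 J in the study's methods), aged 10 to 12 weeks and kept on normal chow in equal phases of light and dark. Fasted mice had their food withdrawn for 24 h, starting in the morning, whereas fed mice ate chow ad libitum. No allele, transgene or drug was used in either group. Whole pieces of liver were used, so that hepatocytes were measured together with the other cells of the organ, and fewer cells of a type cannot be told apart from less RNA per cell.

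When food is withheld, the liver turns from storing energy to releasing it. Insulin falls, glucagon and glucocorticoids rise, and fatty acids arriving from WAT are oxidized in hepatocytes, with the nuclear receptor Ppara as a main sensor of that load. Synthesis of fatty acids and of cholesterol is driven by the transcription factors Srebf1 and Srebf2, and these syntheses are known to be lowered in the fasted liver. Growth hormone acts on the liver through Stat5, which sets the level of many genes that differ between male and female mice.

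Levels are log2 values of the array signal, on which a difference of 1 is 2-fold. A change is the fasted mean minus the fed mean. A gene was called raised or lowered, written below as rose or fell, at an adjusted p under 0.05 in limma and a change of at least 1.3-fold. A gene said not to pass missed the p threshold, the fold threshold or both. Array values are listed in the order of the mice, fed 1, 2, 3 and 5 and fasted 1 to 5. The median SD between mice was 0.105 in fed and 0.117 in fasted LIV, and the number of arrays limits the precision. Arrays of fed LIV had a mean Pearson r of 0.993 to 0.995 with the others of their group, and those of fasted LIV 0.993 to 0.996, while fed LIV 4 had 0.987. No 2 arrays were identical. The 10 measured hepatocyte markers, albumin (Alb) and the liver regulator Hnf4a among them, had a mean level of 12.44 to 12.53 in fed and 12.45 to 12.54 in fasted LIV. Of these markers limma called none (0 at an unadjusted p under 0.05). Their mean lies far above the median level of all genes (5.49). Signal so bright may understate a change in RNA, so equal levels do not show equal RNA. The same limit holds for other very bright genes below.

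Fasting raised 665 genes and lowered 752, together 7.54% of the genes tested (3.54% raised and 4.00% lowered). Counts of called list members below are to be read beside these shares. The lists were chosen with earlier results of these data known, and some genes stand on several lists. Shares, medians and ranks of lists are therefore descriptions, and no list was tested. The median change of all genes was 0.03. Most changes were modest, with a median size of 0.55 among the called genes. At least 2-fold higher levels were found for 84 raised genes and at least 2-fold lower levels for 97 lowered genes, and 12 rose and 20 fell by at least 4-fold. Fed and fasted arrays did not overlap for 1222 of the called genes and overlapped for 195. Counts of called list members with separate arrays below are to be read beside this share. With the arrays left out put back (fed LIV 4 and 1 fasted SM), 722 genes rose and 625 fell. With fasted SM 1, which the study's text names as the outlier, left out in place of fasted SM 5, 644 rose and 668 fell, and of the called genes named below G0s2, Haao, Hsph1, Timd4, Dnase1l3, Mcm5 and Mcm6 lost the call.

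Cdkn1a, which encodes the cell cycle inhibitor p21, had the largest rise. Its levels were 6.50, 6.99, 6.80 and 6.63 in fed LIV and 10.51, 10.39, 9.56, 9.56 and 10.37 in fasted LIV. The fasted arrays lay far above the fed ones, by 10.2-fold on average (change 3.35, SE 0.17, adjusted p = 3.16e-13), and fasted LIV 3 and 4 had the same, lowest fasted level. Fkbp5, a cochaperone of the glucocorticoid receptor and a target of it, stood at 6.46, 6.30, 6.46 and 6.64 in fed and at 8.69, 8.99, 8.87, 9.44 and 9.07 in fasted LIV. It rose 5.84-fold (change 2.55, SE 0.17, adjusted p = 3.53e-11), with both groups tight. Cidec, a lipid droplet protein, rose 5.10-fold, from 5.50, 5.06, 5.11 and 5.48 to 7.69, 7.49, 7.90, 8.0 and 7.09. The other large rises were those of Gm15441, Rgs16, Cyp17a1, Mfsd2a, E230001N04Rik, Ddit4, Ciart, Usp2, Cyp2c39, Nipal1, Zbtb16 and Slc16a5, between 3.17 and 1.97. Ddit4 restrains the growth kinase mTORC1, Ciart and Usp2 belong to the circadian system, and Zbtb16 is a transcription factor induced by glucocorticoids.

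Some of these genes lie next to each other. In the RefSeq annotation Gm15441 overlaps Txnip, an inhibitor of thioredoxin and of glucose uptake, which itself rose by 0.89 (SE 0.13, adjusted p = 2.82e-05). Whether the probe sets separate the strands was not tested, so the rise of Gm15441 from 4.11, 4.30, 4.17 and 4.46 to 7.31, 7.69, 7.24, 8.19 and 6.74 cannot be assigned to its own transcript with certainty. E230001N04Rik lies 36.5 kb from Fkbp5 and rose by 2.18. Among the falls, Gm16551 lies 9.05 kb from Onecut1, a transcription factor of hepatocytes, and fell by 2.58 while Onecut1 fell by 1.83.

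The largest fall was that of Hsd3b5, a steroid dehydrogenase typical of male liver, from 10.45, 10.66, 10.46 and 10.57 to 7.65, 6.22, 6.31, 6.08 and 5.66. It amounted to 17.8-fold, and fasted LIV 1 kept the highest level of the fasted mice. Serpina7, the thyroxine-binding globulin, stood at 8.58, 8.25, 8.59 and 8.53 in fed and at 5.42, 5.51, 5.83, 4.70 and 5.01 in fasted LIV, 9.15-fold lower (change −3.19, SE 0.13, adjusted p = 1.02e-15). Aacs, which activates acetoacetate for lipid synthesis, fell from 8.10, 8.07, 8.10 and 8.30 to 5.62, 5.48, 5.86, 5.43 and 6.14. The 4 fed values of Aacs lay close together, and its fall was 5.41-fold (change −2.44, SE 0.19, adjusted p = 5.37e-10). Efna3, Cyp2c55, Clec2h, Serpina4-ps1, Gm16551, Fabp5, Sqle, Thrsp, Adgrf1, Chrna4, Nsdhl and Idi1 made up the rest of the 15 largest falls, between −3.51 and −2.13. Sqle, Nsdhl and Idi1 are enzymes of cholesterol synthesis, Thrsp promotes fatty acid synthesis and Fabp5 binds fatty acids. Several of these genes ended at a dim level: in fasted LIV the levels of Efna3, Cyp2c55, Gm16551 and Chrna4 were all below 5.49, the median of all genes, where a change in signal may understate a change in RNA. A second probe set of Efna3 was dim in both groups and changed by −0.19 (adjusted p = 0.292).

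**Figure D1:**
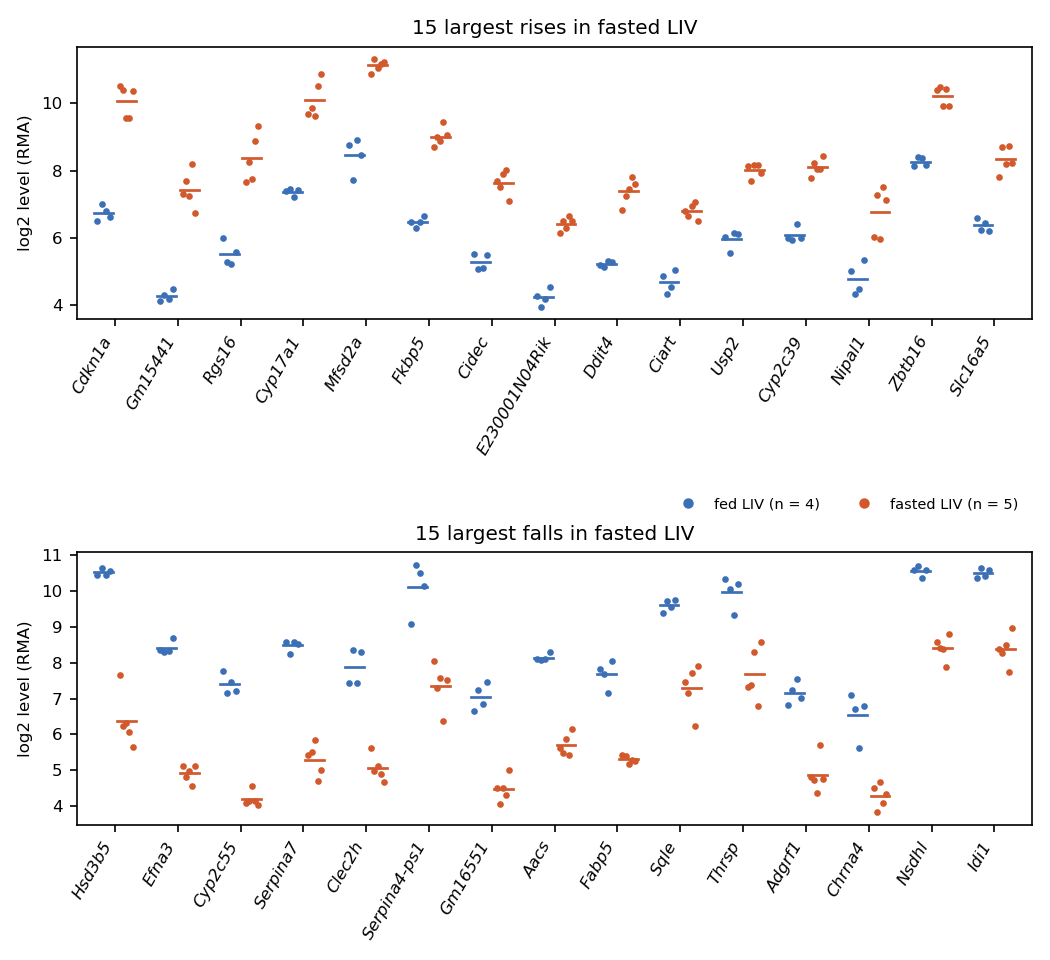
Log2 level (y axis) of the 15 genes with the largest rises and the 15 with the largest falls in fasted LIV, one point per array, with fed LIV in blue, fasted LIV in red and horizontal bars at the group means. Genes were chosen among those without overlap of the fed and fasted arrays, and run from Cdkn1a (change 3.35) to Hsd3b5 (change −4.15).

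Of 17 measured enzymes and carriers of mitochondrial oxidation, 10 rose, none fell and 7 were not called. The median change was 0.47 beside 0.03 over all genes, and the fed and fasted arrays of all 10 raised genes were apart. Of the uncalled genes, Hadha (0.32, adjusted p = 0.000289) and Eci1 (0.36, adjusted p = 0.000119) stayed under 1.3-fold. Cpt1a, the gate of fatty acid entry into mitochondria, stood at 10.96, 10.94, 11 and 11.01 in fed and at 11.57, 11.68, 11.55, 11.73 and 11.60 in fasted LIV. Both groups were tight and the rise was 1.57-fold (change 0.65, SE 0.08, adjusted p = 2.61e-06). The carnitine transporter gene Slc22a5 had the largest rise of the list (1.26, 2.40-fold), from 8.28, 8.06, 8.08 and 8.20 to 9.28, 9.55, 9.23, 9.71 and 9.33. Slc25a20, the carnitine carrier of the inner membrane, rose by 0.73, and the acyl-CoA dehydrogenase genes Acadm and Acadl by 0.54 and 0.47. At the other end, the oxidation enzymes Acaa2 (0.01), Acads (0.03) and Hadh (0.05) did not pass.

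Peroxisomal and microsomal oxidation moved the same way, with 6 of 13 genes raised, none lowered and a median of 0.32. Cyp4a31, an omega hydroxylase of fatty acids, rose 3.48-fold, from 9.68, 9.19, 9.69 and 9.53 to 11.36, 11.06, 11.48, 11.08 and 11.60. Cyp4a14, another hydroxylase of that family, rose by 1.07 and Ehhadh, the peroxisomal bifunctional enzyme, by 0.91. Acyl-CoA thioesterases, which release free fatty acids from coenzyme A, split within their family. Acot1, Acot2, Acot3 and Acot4, neighbours on chromosome 12, rose by 1.93, 1.15, 1.45 and 1.06, and Acot12 by 0.52, whereas Acot5, Acot6, Acot7, Acot9, Acot11 and Acot13 lay between −0.38 and 0.18 and did not pass. Acot1 and Acot2 are close copies of each other, so that signal shared between their probe sets is possible.

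Among 18 other genes known as Ppara targets, 10 rose, none fell and 8 did not pass, with a median of 0.57. Fgf21, a hormone that the fasted liver releases, was dim in fed LIV at 4.20, 4.01, 4.03 and 4.12 and reached 4.72, 5.66, 5.05, 5.54 and 4.82 in fasted LIV. Every fasted array lay above every fed array, and the mean rise was 2.10-fold (change 1.07, SE 0.13, adjusted p = 1.61e-06). Slc27a1, a fatty acid transport protein, rose by 1.58, Angptl4, an inhibitor of lipoprotein lipase, by 0.89, and the pantetheinase gene Vnn1 by 0.83. Ppara itself rose by 0.41 (adjusted p = 0.00588). Pdk4, the kinase that switches off pyruvate dehydrogenase, did not follow: its levels were 8.72, 8.52, 8.44 and 8.56 in fed and 7.90, 8.74, 7.98, 8.27 and 8.53 in fasted LIV, which overlap (change −0.28, adjusted p = 0.154). Fabp1 (−0.33), the abundant fatty acid binding protein of liver, and Cd36 (0.18), a fatty acid uptake receptor, did not pass either.

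Proteins that coat or break down lipid droplets were raised in 9 of 20 cases and lowered in 1, with a median of 0.26. Plin4 and Plin5, coat proteins whose genes lie 1.65 kb apart, rose by 1.82 and 1.46. Plin5 went from 7.69, 7.72, 7.83 and 7.67 to 9.09, 9.32, 9.34, 9.18 and 9.03, with narrow groups. Pnpla2, the triglyceride lipase, rose by 0.73 (adjusted p = 2.77e-07), and its inhibitor G0s2 by 0.86 (adjusted p = 0.0437). G0s2 was less uniform, with 7.67 in both fed LIV 1 and fasted LIV 1 and 9.58 in fasted LIV 2. Fitm1, which helps droplets to form, was the gene that fell (−0.48). In triglyceride and phospholipid synthesis, 5 of 18 genes rose and 1 fell (median −0.03). Lpin1, a phosphatidate phosphatase that also acts as a partner of Ppara, led them, from 9.05, 8.75, 8.99 and 9.18 to 10.11, 10.49, 10.37, 10.93 and 10.67 (change 1.52, SE 0.12, adjusted p = 2.48e-10), and Chka, the choline kinase, was lowered (−0.46).

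**Figure D2:**
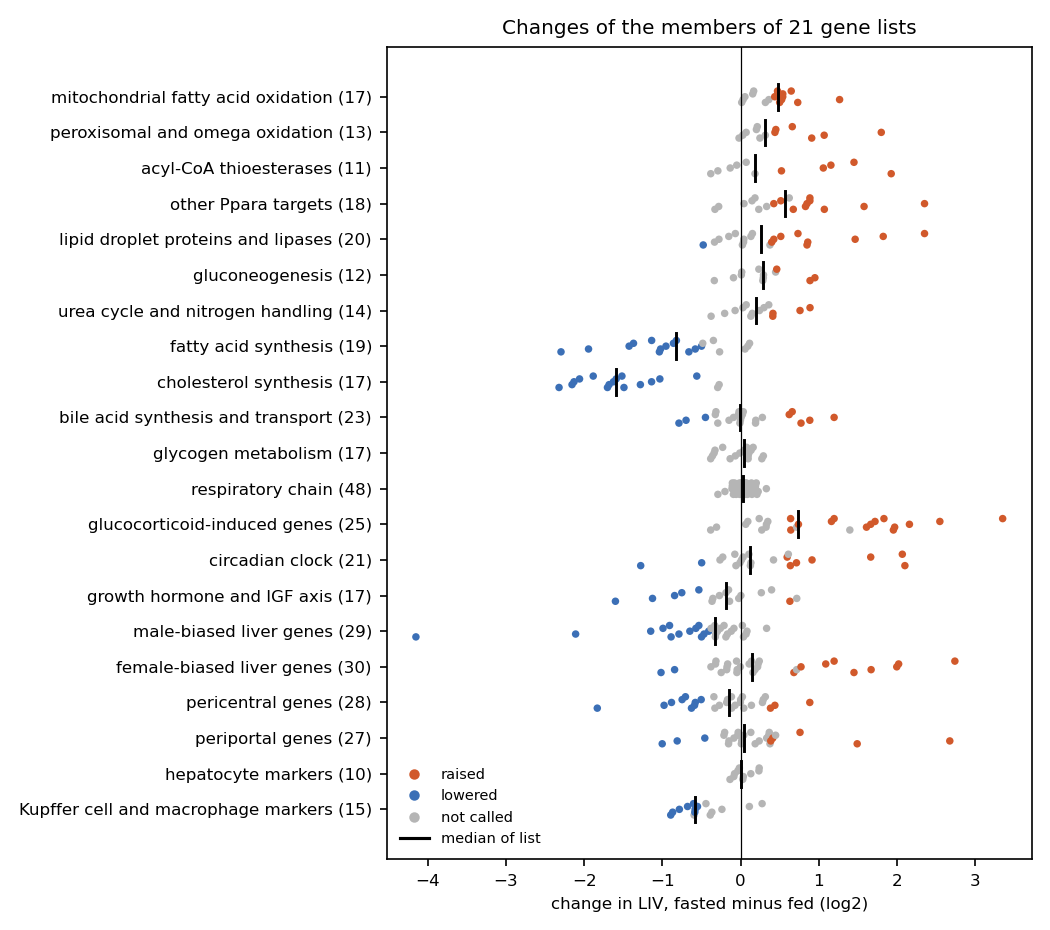
Change in LIV (x axis, log2, fasted minus fed) of each measured member of 21 gene lists (y axis, number of members in brackets), with called rises in red, called falls in blue, the rest in grey and the list median as a black bar. The medians lie at 0.47 for mitochondrial oxidation, −0.82 for fatty acid synthesis, −1.59 for cholesterol synthesis and 0.74 for glucocorticoid-induced genes, beside 0.03 for all genes.

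Gluconeogenesis gave a mixed picture. Of 12 measured genes 3 rose, none fell and 9 did not pass, with a median of 0.29. Slc37a4, which carries glucose 6-phosphate into the endoplasmic reticulum, rose from 10.44, 10.29, 10.30 and 10.29 to 11.24, 11.18, 11.25, 11.36 and 11.35 (change 0.95, SE 0.06, adjusted p = 1.60e-11). Ppargc1a, a coactivator of gluconeogenic genes, rose by 0.89 (SE 0.19, adjusted p = 0.00147) and the aminotransferase gene Got1 by 0.46. G6pc, the phosphatase of the last step, was at 12.37, 12.24, 12.25 and 12.13 in fed and at 12.22, 12.29, 12.13, 12.17 and 12.46 in fasted LIV (change 0.01), without any separation of the groups. Pck1, the enzyme that commits oxaloacetate to glucose, was separated on the arrays, with 11.98, 11.88, 12.08 and 11.99 in fed and 12.45, 12.45, 12.40, 12.47 and 12.39 in fasted LIV. Its change of 0.45 did not pass (SE 0.30, adjusted p = 0.392) in the fit whose SE came from all 3 tissues. Over the 9 liver arrays alone the SE was 0.056 and Pck1 passed (adjusted p = 0.000575). In the fit over all tissues Pcx (0.28, adjusted p = 0.00781) stayed under 1.3-fold and Fbp1 (0.01) did not pass.

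Few genes of the neighbouring pathways moved. Of 5 genes of ketone body synthesis and export none rose, and Slc16a6, a transporter for ketone body export, fell (−0.57, adjusted p = 0.00583). Acat1 (0.29, adjusted p = 0.003) stayed under 1.3-fold and Bdh1 (0.06) did not pass. None of 17 genes of glycogen metabolism, none of 12 genes of pyruvate dehydrogenase and its regulators and none of 48 genes of the respiratory chain was called, with medians of 0.04, −0.01 and 0.03. At an unadjusted p under 0.05 in limma stood 4, 3 and 10 of them, and the fit on the liver arrays alone called none either. The changes of the glycogen genes ran from −0.38 (Ppp1r3c) to 0.29 (Gys2). In glycolysis, 1 of 14 genes rose and 1 fell: Pfkfb2, which sets the level of fructose 2,6-bisphosphate, went up by 1.11 (adjusted p = 1.15e-09) and the pyruvate kinase gene Pklr down by 0.75 (adjusted p = 0.00107).

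Nitrogen handling rose in part. In the urea cycle list 4 of 14 genes rose and none fell (median 0.19). Asl, which splits argininosuccinate, rose from 11.16, 11.12, 11.14 and 11.18 to 11.90, 11.86, 11.90, 12.02 and 11.87, with a change of 0.76 (SE 0.07, adjusted p = 5.48e-09) and almost no spread between mice. Arg1 and the aspartate carrier gene Slc25a13 rose by 0.41 each. Otc (−0.38, adjusted p = 0.000163) stayed just under 1.3-fold and Cps1 (0.13) did not pass. Of 45 genes of amino acid breakdown 2 rose and 2 fell, or 8.89% beside 7.54% of all genes (median 0.04). The alanine aminotransferase gene Gpt2 rose by 0.69, Got1 by 0.46, and Aldh4a1 and Haao, which act on proline and tryptophan breakdown, were lowered by fasting (−0.48 and −0.39). In methionine and betaine metabolism 2 of 18 genes rose and 1 fell. The probe sets of Bhmt, the betaine methyltransferase, disagreed: the brighter one went from 12.45, 12.35, 12.27 and 12.21 to 12.69, 12.65, 12.67, 12.66 and 12.70 (change 0.35, adjusted p = 0.194). The dimmer one stood at 5.90, 6.36, 6.29 and 5.16 in fed and at 9.14, 9.42, 9.13, 9.02 and 9.03 in fasted LIV (change 3.22, adjusted p = 2.49e-12). Bhmt2, the neighbouring homologue, rose by 0.51, Mtrr by 0.40, and Gclc, which makes glutathione, fell (−0.64). In serine synthesis and folate metabolism, 1 of 11 genes rose, Mthfd1l (0.53), or 9.09% beside 7.54% of all genes.

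Fatty acid synthesis was lowered in most of its steps. Of 19 genes 13 fell, none rose and 6 did not pass (median −0.82), and none of the 13 had overlapping arrays. Srebf1, the factor that drives the pathway, fell from 9.48, 9.61, 9.38 and 9.52 to 8.02, 7.56, 7.71, 6.90 and 7.58, 3.85-fold lower (change −1.95, SE 0.16, adjusted p = 9.19e-10). Fasn, the fatty acid synthase, fell 2.69-fold, from 11.08, 10.93, 10.72 and 11 to 9.48, 9.42, 9.75, 8.85 and 10.03. Fasted LIV 4 was the lowest of the fasted arrays in both genes and in 10 of the 13. Acss2 and Acly, which supply acetyl-CoA, fell (−1.37 and −1.14), both acetyl-CoA carboxylase genes fell (Acacb −1.04, Acaca −0.66), and so did Mlxipl, the carbohydrate response factor (−0.82). Desaturases differed: Scd2 fell by 0.86, whereas Scd1, the main form in liver, was very bright at 12.68, 12.66, 12.68 and 12.63 in fed and 12.37, 12.36, 12.56, 12.26 and 12.40 in fasted LIV (change −0.27, adjusted p = 0.363). The arrays of Scd1 did not overlap, but the change stayed under 1.3-fold. Fads1 (−0.35), Fads2 (0.11) and Elovl5 (0.06), which act on polyunsaturated fatty acids, did not pass. NADPH supply went along in part, with 3 of 9 genes of the pentose phosphate pathway and malic enzyme lowered (Pgd −0.92, Tkt −0.65, Me1 −0.58) and none raised.

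Cholesterol synthesis had the strongest fall of any list, by the median. Of 17 enzymes 15 fell, none rose and 2 did not pass, with a median of −1.59, and the 15 had no overlapping arrays. Hmgcs1, the synthase at the entry of the pathway, fell 2.86-fold, from 10.70, 11.01, 10.72 and 11.01 to 9.44, 9.38, 9.49, 8.63 and 9.77 (change −1.52, SE 0.18, adjusted p = 6.10e-07). Sqle, the squalene epoxidase, fell 5.00-fold, from 9.40, 9.74, 9.57 and 9.77 to 7.46, 7.16, 7.73, 6.22 and 7.92. Lss, the cyclase of the next step, fell 3.26-fold, from 9.61, 9.83, 9.39 and 9.80 to 7.91, 8.02, 7.98, 7.81 and 8.04, with the tightest fasted values of these. Mvd (−2.06), Cyp51 (−1.89) and Fdps (−1.68) also fell, and Hsd17b7 (−0.29) and Ebp (−0.28) did not pass.

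The fasted mice differed among themselves in one direction across the pathway. All 15 lowered enzymes had their lowest level in fasted LIV 4, and 12 of them their highest fasted level in fasted LIV 5. Averaged over the 15, the level was 8.38, 8.32, 8.40, 7.87 and 8.65 in fasted LIV 1 to 5 and 9.86, 10.06, 9.75 and 10.07 in fed LIV. Sterol sensing followed in part, with 2 of 15 genes lowered and 2 raised. Insig1, which holds the Srebf proteins in the endoplasmic reticulum and is itself a target of them, fell from 11.36, 11.35, 11.42 and 11.56 to 9.92, 9.96, 10.08, 9.51 and 10.16 (change −1.50), and the sterol carrier gene Stard4 fell by 1.41. Insig2, known as an isoform of the fasted state, rose by 0.57 (adjusted p = 2.68e-05), and Mylip, which degrades the LDL receptor, by 0.82. Srebf2 itself changed by −0.34, just under 1.3-fold (adjusted p = 0.00665), and did not pass.

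**Figure D3:**
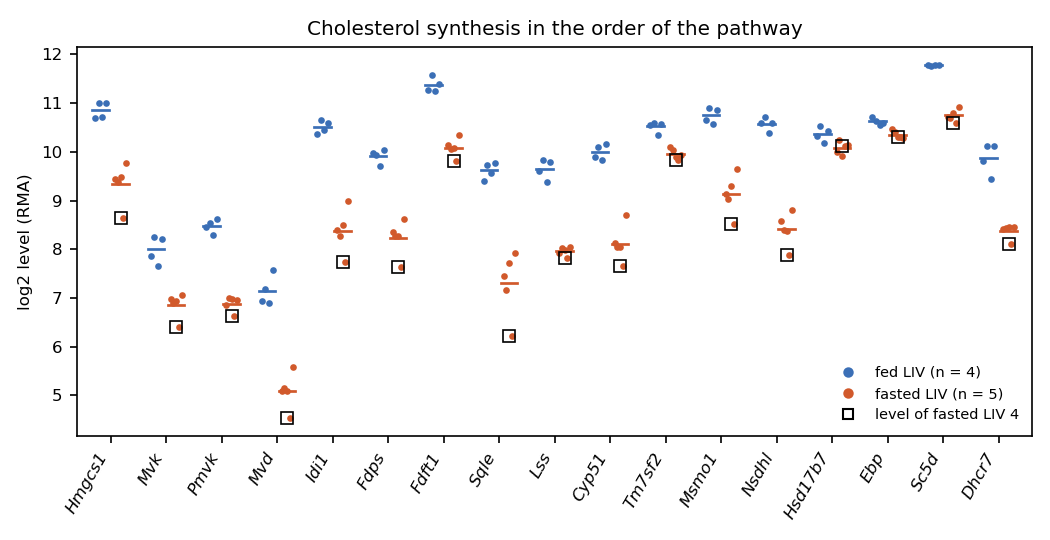
Log2 level (y axis) of 17 enzymes of cholesterol synthesis in pathway order (x axis), with fed LIV in blue, fasted LIV in red, group means as bars and a square around the point of fasted LIV 4. In the 15 genes that fell, from Sqle (−2.32) to Tm7sf2 (−0.56), fasted LIV 4 is the lowest array.

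Promoters of the list were searched for the sterol response element, to show where the letters occur in a gene of the pathway. The letters TCACNCCAC were found, on either strand, in 1 of the 14 members with a RefSeq promoter, beside 1.24% of all 32851 promoters (250 bases before to 50 after the start) and 1.44% of the genes they belong to. That member was Hmgcs1. Its 250 bases before the start, chr13:119690101-119690350 in GRCm38.p6 (plus strand), are shown with the element in capitals, since this gene opens the pathway and fell 2.86-fold.

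Hmgcs1: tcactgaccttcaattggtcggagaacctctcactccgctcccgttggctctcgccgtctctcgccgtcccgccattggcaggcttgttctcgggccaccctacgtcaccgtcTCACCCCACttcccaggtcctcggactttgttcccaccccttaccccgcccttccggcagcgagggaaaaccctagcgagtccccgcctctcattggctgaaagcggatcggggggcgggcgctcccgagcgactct

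A match of letters is a description and not evidence of a bound site, and no match says only that these letters are not in the window.

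Bile acid genes moved in both directions. Of 23 genes 5 rose and 3 fell, with a median of −0.00. Cyp7a1, the rate-limiting enzyme of bile acid synthesis, rose from 10.27, 9.91, 9.88 and 10.16 to 10.69, 11.01, 10.90, 10.88 and 11.21 (change 0.88, SE 0.09, adjusted p = 1.17e-07). The hydroxylase genes Cyp39a1 and Cyp8b1 rose by 1.20 and 0.62. Abcb11, the bile salt export pump, fell from 11.21, 11.23, 11.30 and 11.23 to 10.60, 10.39, 10.53, 10.43 and 10.77 (change −0.70, adjusted p = 2.50e-08), and Nr0b2, a repressor of Cyp7a1, by 0.45, with overlapping arrays. Of 19 apolipoproteins and assembly factors, 2 rose and 2 fell (median 0.03). Apoa4 rose by 1.49 (adjusted p = 0.0274), from 9.66, 9.76, 10.06 and 9.90 to 11.47, 11.17, 11.29, 11.72 and 11.02, and its second probe set by 1.02. Angptl8, a feeding-induced partner in the control of lipoprotein lipase, fell by 1.00, and the main apolipoprotein genes Apob (0.03), Apoa1 (0.03) and Apoe (0.01) did not pass.

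Targets of glucocorticoids rose more often than any other list with over 20 genes, by share of members (56%). This rank depends on how the members were chosen, which was with earlier results of these data known. Among shorter lists the share was higher for mitochondrial oxidation (58.8%) and similar for other Ppara targets (55.6%). Of the 25 glucocorticoid targets 14 rose, none fell and 11 did not pass, with a median of 0.74, and the arrays of all 14 were apart. Besides Cdkn1a, Fkbp5, Ddit4 and Zbtb16, the list held Gadd45b, a stress-induced growth regulator, with levels of 6.08, 5.36, 5.75 and 5.76 in fed and 7.03, 8.21, 7.55, 7.97 and 7.70 in fasted LIV (change 1.95, SE 0.18, adjusted p = 8.74e-09). The metallothionein genes Mt1 and Mt2, which lie 5.32 kb apart on chromosome 8, rose by 1.61 and 1.72. Mt2 reached 12.18, 12.10, 12.07, 12.16 and 12.36 in fasted LIV from 10.73, 10.01, 10.08 and 11.01 in fed LIV, so that the fasted mice were the more uniform group. Tsc22d3, the leucine zipper protein of the glucocorticoid response, rose by 1.16, Cebpd by 1.20 and Klf15 by 0.64. Members that did not pass were Tat (0.24), the aminotransferase often used to follow the hormone, Sgk1 (0.27) and Dusp1 (0.09). The receptor gene Nr3c1 (−0.31, adjusted p = 0.000234) stayed under 1.3-fold. Lcn2 had a change of 1.40 but differed widely between mice, from 7.22 to 9.12 in fasted LIV (adjusted p = 0.0926).

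Of 27 targets of p53, 5 rose, 2 fell and 20 did not pass, with a median of 0.08. The 5 were Cdkn1a, Ddit4, Lpin1, the sestrin gene Sesn2 (0.78) and Trp53inp1 (0.40), and each of these but Trp53inp1 also stands on another of the lists used here. Mdm2, the negative regulator of p53, stood at 8.16, 8.01, 8.05 and 8.08 in fed and 8.14, 8.20, 8.01, 8.17 and 8.26 in fasted LIV (change 0.08, adjusted p = 0.481), and Ccng1 (−0.06), Phlda3 (−0.00) and Bbc3 (0.10) did not pass. The polo-like kinase genes Plk3 and Plk2 fell by 0.74 and 0.49.

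In the integrated stress response 3 of 26 genes rose and 1 fell (median 0.03). Asns, the asparagine synthetase, rose by 1.15, from 6.66, 7.03, 6.25 and 6.76 to 8.36, 7.47, 8.04, 8.10 and 7.16, Fgf21 by 1.07 and Sesn2 by 0.78, while Chac1, a glutathione-degrading enzyme of the same response, fell by 0.75 and Atf4, its central factor, changed by −0.33 without passing. Of 23 chaperones and sensors of the endoplasmic reticulum 3 rose and 1 fell (median 0.00). Herpud1 rose by 0.64, Creld2 by 0.57 and Derl3 by 1.06, and the sensor gene Ern1 fell by 0.57. Derl3 was among the most variable genes of fasted LIV, with 8.74 in fasted LIV 5 and 6.76 in fasted LIV 2. Of 16 cytosolic heat shock proteins 2 rose, Bag3 (0.63) and Hsph1 (0.53). Of 32 genes of autophagy and lysosomes 3 rose, Bnip3 (0.70), Map1lc3b (0.42) and Atg16l1 (0.42), and Ulk2 fell (−0.47). Of 25 genes of insulin signalling and FoxO action 3 rose and none fell, Ddit4, Sesn2 and Foxo1, which went from 8.66, 8.63, 8.52 and 8.54 to 9.20, 9.21, 9.00, 9.07 and 9.22 (change 0.55, adjusted p = 2.43e-07), and the insulin receptor substrate gene Irs2 did not pass (0.13). Called members made up 15.4, 17.4, 12.5, 12.5 and 12% of these lists in turn, beside 7.54% of all genes.

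Of 21 clock genes 7 rose and 2 fell, with a median of 0.12. Per1, a repressor of the core loop that glucocorticoids also induce, rose 3.17-fold, from 7.20, 6.27, 6.78 and 6.40 to 8.18, 8.38, 8.46, 8.31 and 8.29 (change 1.66, SE 0.14, adjusted p = 1.05e-09). The fasted mice had nearly equal levels of Per1, and the fed mice differed more. Ciart, a repressor of the same loop, rose 4.29-fold, from 4.87, 4.32, 4.54 and 5.04 to 6.81, 6.66, 6.96, 7.05 and 6.50, and its second probe set by 2.07. Per2 (0.71), Noct (0.91), Tef (0.64) and Hlf (0.59) also rose, the last as factors of the output arm. Npas2, an activator, fell from 7.42, 8.47, 7.79 and 7.76 to 7.25, 6.59, 6.33, 5.64 and 7.10 (change −1.28, adjusted p = 0.000366), and Bhlhe40 by 0.50. Arntl, the other activator, changed by −0.23 (adjusted p = 0.231), and Clock (−0.01), Cry1 (−0.26) and Nr1d2 (−0.06) did not pass.

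The E-box, the letters CACGTG to which the activators of the clock bind, was present in the promoters of 5 of 17 clock genes with a RefSeq promoter, namely Bhlhe41, Ciart, Cry1, Per1 and Tef, beside 7.15% of all promoters and 8.09% of their genes, and reads the same on both strands. Of these 5, 3 rose. The D-box TTATGTAA was found in 1 of 17 (Per3; 0.938% of all promoters, 1.11% of genes) and the letters TNACGTCA of the cAMP response element in 1 of 17 (Hlf) and in 3 of 11 gluconeogenic genes (Ldha, Pck1 and Slc25a25; 2.93% of all promoters, 3.36% of genes). The same letters stood in 2 of 21 promoters of the integrated stress response (Atf3 and Ppp1r15a). Neither of the lists of mitochondrial oxidation (15 promoters) and of other Ppara targets (16 promoters) held the direct repeat DR1 (the consensus half-site of nuclear receptors repeated after 1 base), which 0.0396% of all promoters and 0.0481% of genes held. The 250 bases before the start of Ciart, at chr3:95882229-95882478 on the minus strand, and of Per1, at chr11:69098699-69098948 on the plus strand (GRCm38.p6), are shown because they gave the largest rises of clock repressors, with each E-box in capitals.

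Ciart: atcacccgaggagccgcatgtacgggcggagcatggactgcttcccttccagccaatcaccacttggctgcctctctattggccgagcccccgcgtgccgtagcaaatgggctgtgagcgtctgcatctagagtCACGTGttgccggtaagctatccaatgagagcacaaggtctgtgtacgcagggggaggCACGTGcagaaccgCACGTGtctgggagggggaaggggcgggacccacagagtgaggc
Per1: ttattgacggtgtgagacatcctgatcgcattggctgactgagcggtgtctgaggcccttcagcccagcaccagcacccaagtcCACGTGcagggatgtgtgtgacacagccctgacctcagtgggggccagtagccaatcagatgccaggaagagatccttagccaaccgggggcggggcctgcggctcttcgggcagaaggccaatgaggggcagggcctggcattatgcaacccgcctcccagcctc

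Ciart thus held 3 E-boxes within the window and Per1 held 1.

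Of 17 genes of the growth hormone and IGF axis 5 fell and 1 rose (median −0.19). In Cish, and in Onecut1 and Bcl6, which are not among the called genes of that list, fed LIV 1 stood apart from the other fed livers. Cish, an inhibitor induced by the hormone through Stat5, was at 4.90 in fed LIV 1 and at 7.71, 7.38 and 7.21 in fed LIV 2, 3 and 5, against 5.03, 5.23, 5.08, 5.21 and 5.44 in fasted LIV. Its change was −1.60 (SE 0.46, adjusted p = 0.0189), and −2.23 without fed LIV 1 (adjusted p = 0.000314). It did not pass without fed LIV 2, 3 or 5 (adjusted p = 0.101, 0.0701 and 0.0543). Onecut1 had the same order, with 7.50 in fed LIV 1, 9.84, 9.74 and 8.85 in the other fed livers and 6.85, 7.03, 7.41, 6.86 and 7.63 in fasted LIV (change −1.83, adjusted p = 1.76e-05). Bcl6, a repressor that growth hormone lowers, ran the opposite way, with 9.19 in fed LIV 1, 7.21, 6.86 and 7.26 in the others and 8.31, 8.62, 7.94, 8.42 and 8.44 in fasted LIV. Its change of 0.72 did not pass (adjusted p = 0.169), whereas without fed LIV 1 it was 1.24 and passed (adjusted p = 0.00150). Fed LIV 4, which entered no fit, lay near fed LIV 1 in these genes, at 5.22 for Cish, 7.30 for Onecut1 and 9.12 for Bcl6.

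Socs2, another inhibitor of the receptor, fell by 1.13, from 8.02, 9.15, 8.93 and 8.31 to 6.97, 7.67, 7.09, 8.10 and 7.55, although fasted LIV 4 reached fed LIV 1. A second probe set of Socs2 changed by −0.36 and did not pass (adjusted p = 0.0559). Igfals, which keeps IGF in the blood, fell by 0.75 (SE 0.11, adjusted p = 1.17e-05), the cytokine receptor gene Lifr by 0.84 and Egfr by 0.53. The growth factor gene Igf1 did not pass at 11.20, 11.34, 11.31 and 11.35 in fed and 11.15, 11.03, 11.10, 11.24 and 11.19 in fasted LIV (change −0.15, adjusted p = 0.292), and Ghr changed by −0.36, under 1.3-fold. Igfbp1, the binding protein that insulin suppresses, rose by 0.63, from 8.63, 9.13, 8.46 and 8.82 to 9.08, 9.77, 8.83, 9.93 and 9.34, with overlapping arrays.

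**Figure D4:**
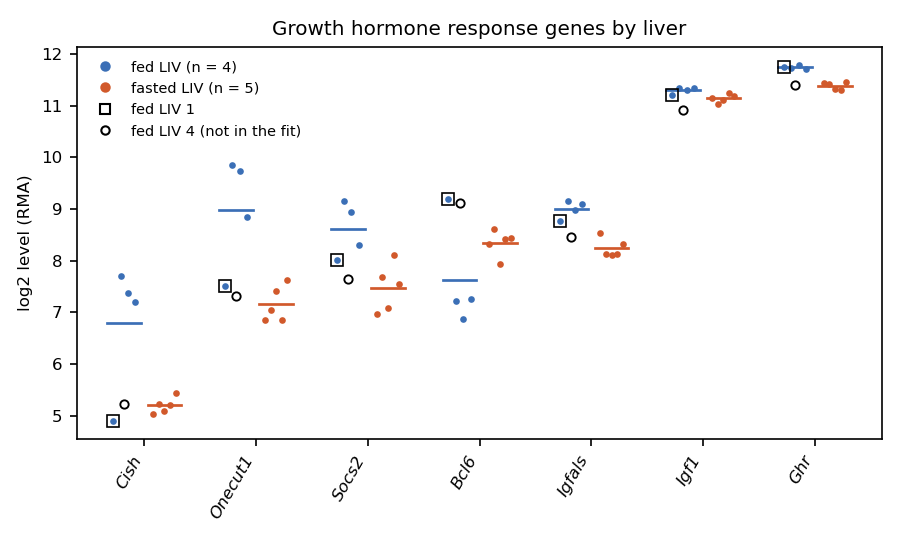
Log2 level (y axis) of 7 genes that respond to growth hormone or belong to its axis (x axis), fed LIV in blue and fasted LIV in red, with group means as bars, squares around fed LIV 1 and open circles for fed LIV 4, which is not in the means. Fed LIV 1 and 4 lie among or near the fasted arrays for Cish (4.90 and 5.22) and Bcl6 (9.19 and 9.12) while fed LIV 1 lies with the other fed arrays for Ghr.

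Of 29 male-biased genes of liver 13 fell, none rose and 16 did not pass (median −0.33). Arrays did not overlap for 11 of the 13, beside 1222 of all 1417 called genes. Apart from Hsd3b5, Cyp2c70, a bile acid hydroxylase, fell 4.32-fold, from 11.24, 11.32, 11.31 and 11.26 to 9.07, 8.89, 8.66, 9.34 and 9.91. Selenbp2 fell by 1.15 and the organic anion transporter gene Slco1a1 by 0.79. Not all male markers took part, since Cyp2d9 (0.07), Cyp4a12a (−0.12), Mup20 (0.02) and Ugt2b1 (−0.21) did not pass. Mup genes are near-identical copies, and their probe sets may share signal. Of 30 female-biased genes 9 rose and 2 fell (median 0.15). Cyp17a1, a steroid hydroxylase, rose 6.68-fold, from 7.40, 7.46, 7.22 and 7.42 to 9.68, 9.87, 9.61, 10.53 and 10.87. Fmo2, a monooxygenase, rose by 1.67, the transcription regulator gene Tox by 1.09 and the corepressor gene Trim24 by 0.68. Cux2, a factor of female liver (0.22), and Sult3a1 (0.11) did not pass, and Hamp2 (−1.02) and Lifr fell. Cux2 and Sult3a1 were dim in fed LIV, with means of 4.23 and 2.42. Of the 30 genes 13 had a fed mean under 5, where a change may not be seen.

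Among conjugating enzymes of drug metabolism, 12 fell and 3 rose. These were of 32 sulfotransferases, glucuronosyltransferases and glutathione transferases, with a median of −0.27. Gstm3 fell 3.56-fold, from 11.02, 11.13, 10.92 and 10.88 to 9.25, 8.95, 9.76, 8.58 and 9.23, and Gstm6 by 1.11, while Sult1d1 rose by 0.85. Of 38 cytochrome P450 genes and their regulator 6 fell and 4 rose (median −0.07). Within the Cyp2c cluster of chromosome 19 the directions differed: Cyp2c55 fell 9.33-fold, from 7.77, 7.17, 7.46 and 7.22 to 4.08, 4.13, 4.54, 4.13 and 4.04, while Cyp2c39, 305 kb away, rose 4.05-fold, from 6.00, 5.94, 6.40 and 6.00 to 7.78, 8.22, 8.04, 8.05 and 8.43. Cyp2c39 and Cyp2c38 (0.94) overlap in the annotation, and their signals may not be separate. Cyp2a22 rose by 1.77 on average with wide differences, from 4.53 in fasted LIV 1, within the fed range of 3.91 to 4.71, to 7.08 in fasted LIV 5. The abundant Cyp3a11 (−0.06) and Cyp2e1 (0.04) did not pass. Cyp26a1, which breaks down retinoic acid, had one of the largest spreads of the fed group, at 8.58, 7.42, 9.56 and 7.88, and fell 4.36-fold to 6.22, 6.04, 6.40, 5.97 and 6.56 (change −2.12, adjusted p = 2.45e-07).

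By zone of the lobule, 9 of 28 pericentral genes fell and 3 rose (median −0.14), and 3 of 27 periportal genes fell and 5 rose (median 0.04). Rgn, a calcium-binding protein, had the most uniform pericentral fall, from 10.88, 10.91, 10.88 and 10.95 to 10.02, 9.97, 10.03, 10.09 and 9.99 (change −0.88, SE 0.05, adjusted p = 4.88e-12). Cyp1a2 (−0.59), Cyp2c29 (−0.75) and Lgr5 (−0.50) fell too, whereas the classical markers Glul (−0.07), Axin2 (−0.11) and Cyp2e1 did not pass. Mfsd2a, a periportal transporter of lysophospholipids, rose 6.38-fold, from 8.76, 7.72, 8.90 and 8.45 to 10.88, 11.31, 11.06, 11.18 and 11.22, and Cdh1, the periportal cadherin, fell by 1.00. Neither zone moved in 1 direction.

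Of 15 markers of Kupffer cells, the resident macrophages of the liver, 8 fell, none rose and 7 did not pass (median −0.58). Arrays were separate for 7 of the 8, beside 1222 of all 1417 called genes. The mean of the 15 was 7.11 to 7.64 in fed and 6.66 to 7.11 in fasted LIV. Clec4f, a lectin of Kupffer cells alone in liver, stood at 8.14, 7.96, 8.37 and 8.25 in fed and 7.70, 7.45, 7.38, 7.70 and 7.90 in fasted LIV (change −0.55, SE 0.10, adjusted p = 0.000162). Timd4 fell by 0.68, Adgre1 by 0.78, Folr2 by 0.87 and Lyz2 by 0.89, while Cd163 (0.11), Cd14 (0.27) and Marco (−0.24) did not pass. Of 15 stellate cell and fibroblast markers 5 fell and none rose (median −0.20). Among them were the lecithin retinol acyltransferase gene Lrat at −0.78 and the collagen gene Col3a1 at −0.84. The mean of these 15 was 7.44 to 7.81 in fed and 7.11 to 7.47 in fasted LIV. Among 14 endothelial markers Lyve1 rose (0.85) and Dnase1l3 fell (−0.57), or 14.3% called beside 7.54% of all genes. No marker of monocytes and neutrophils (10), lymphocytes (13), cholangiocytes (7), muscle fibres (12) or pancreatic acini (8) was called by limma. At an unadjusted p under 0.05 stood 1, 1, 2, 1 and 1 of them. Most of these markers were dim, and 10, 12, 4, 11 and 8 of them in turn had a fed mean under 5. At such levels a change in these cells may not be seen. On the liver arrays alone 1 lymphocyte and 1 cholangiocyte marker fell. Of 8 adipocyte markers Aqp7 rose (0.44) and of 3 red cell markers Alas2 fell (−0.57), a gene also on the male-biased list. The part of these cell types in the other results was not tested.

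Plasma proteins changed in a few members. Of 25 acute phase genes 3 rose and 4 fell (median −0.09), with the interleukin receptor genes Il6ra (1.11) and Il1r1 (0.94) and the endotoxin binding protein gene Lbp (0.59) raised and Saa2 (−0.91), Steap4 (−0.74), Apcs (−0.64) and Saa4 (−0.49) lowered. None of 30 complement and coagulation genes rose and 4 fell (median −0.16), Tfpi2 (−0.86), F11 (−0.57), Mbl1 (−0.51) and C8a (−0.41). Of 26 secreted hepatokines 8 rose and 2 fell (median 0.09). Inhbe, an activin subunit, rose by 0.63 and Ccn2, a matrix protein, by 1.26, and Lect2 fell by 0.58. In iron, heme and metallothionein metabolism 3 of 25 genes rose (Mt1, Mt2 and Cpox) and 3 fell (Hamp2, Hmox1 and Slc39a4), while the iron hormone gene Hamp did not pass (−0.21). In NAD metabolism 1 of 22 genes rose, Nadsyn1 (0.51), and 3 fell, Aox3 (−0.61), Aox1 (−0.40) and Haao.

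Among transcription factors, some of which also stand on the lists above, 3 of 30 nuclear receptors rose, Ppara (0.41), Esrra (0.45) and Esrrg (0.53), and 3 fell, Nr4a1 (−1.56), Rarb (−0.46) and Nr0b2. Nr4a1, an immediate early gene, stood at 7.19, 6.63, 6.25 and 6.60 in fed and at 5.89, 4.95, 4.79, 5.02 and 4.88 in fasted LIV. Of 42 other factors 6 rose and 5 fell (median −0.03). Id3, an inhibitor of helix-loop-helix factors, fell 3.38-fold, from 7.83, 8.53, 8.36 and 8.21 to 6.44, 6.95, 6.34, 6.26 and 6.40, and Hes6 fell by 1.29, while the forkhead gene Foxa3 rose by 0.69. Of 37 amino acid and organic anion transporters 7 rose and 8 fell (median −0.02), led by Slc16a5 (1.97) and Slc41a3 (1.81) on one side and by Slc22a7 (−1.47), an organic anion transporter, on the other. In cell division, 2 of 24 genes rose, Rrm2 (0.72) and Birc5 (0.52), and 3 fell, Ccnd1 (−1.08), Mcm5 (−0.38) and Mcm6 (−0.38). Ccnd1, the cyclin of the step from rest to growth, went from 8.08, 8.08, 8.35 and 8.13 to 7.11, 7.19, 6.91, 6.99 and 7.19.

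To see which changes belonged to LIV more than to the other tissues, the difference between the tissues was itself tested in the same fit (adjusted p under 0.05). Over all genes the change in LIV differed from that in WAT for 20.9% and from that in SM for 19.6%. A gene with little RNA in WAT or SM has little room to fall there, and levels in those tissues were not examined. Of 25 genes, 12 of them taken as the 6 largest rises and 6 largest falls in LIV, which favours a difference, 16 differed from WAT, 18 from SM and 14 from both. Hsd3b5 fell by 4.15 in LIV and changed by 0.01 in WAT and −0.19 in SM (differences −4.16 and −3.96, adjusted p = 8.29e-11 and 2.02e-10). Rgs16, which ends G protein signals, rose from 6.00, 5.28, 5.20 and 5.57 to 7.67, 8.26, 7.75, 8.89 and 9.32 in LIV and changed by −0.06 and −0.02 in WAT and SM (differences 2.93 and 2.89). Pdk4 ran the other way, with −0.28 in LIV, 2.67 in WAT and 0.90 in SM (differences −2.95 and −1.18, adjusted p = 3.88e-12 and 2.27e-05). Fgf21 rose more in LIV than its change in WAT (0.19) or SM (−0.15), with adjusted p = 0.000908 and 3.29e-05 for the differences.

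Other genes could not be told apart between tissues. Per1 rose by 1.66 in LIV, 1.32 in WAT and 1.41 in SM (adjusted p = 0.248 and 0.430 for the differences of 0.34 and 0.25), and Fasn changed by −1.43, −1.59 and −1.73 (adjusted p = 0.837 and 0.673). Cpt1a rose by 0.65 in LIV and 0.67 in SM (difference −0.02, adjusted p = 0.924) but changed by −0.25 in WAT (difference 0.89, adjusted p = 2.34e-06). Fkbp5 rose more in LIV than in WAT (difference 0.78, adjusted p = 0.0219), and its difference from SM did not pass (0.48, adjusted p = 0.204). Cdkn1a rose by 3.35 in LIV, 1.01 in WAT and 2.15 in SM, and both differences passed (2.33 and 1.20). By list, 14 of 17 mitochondrial oxidation genes differed from WAT and 10 from SM, all toward a higher change in LIV. In cholesterol synthesis 11 of 17 differed from WAT, 10 of them toward a lower change in LIV, and 14 from SM. Among male-biased genes 15 of 29 differed from WAT and 14 from SM, all toward a lower change in LIV. Without their levels in WAT and SM, a weaker response there cannot be told apart from little RNA to lower. For the respiratory chain, uncalled in LIV, 27 of 48 differed from WAT, all toward a higher change in LIV.

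**Figure D5:**
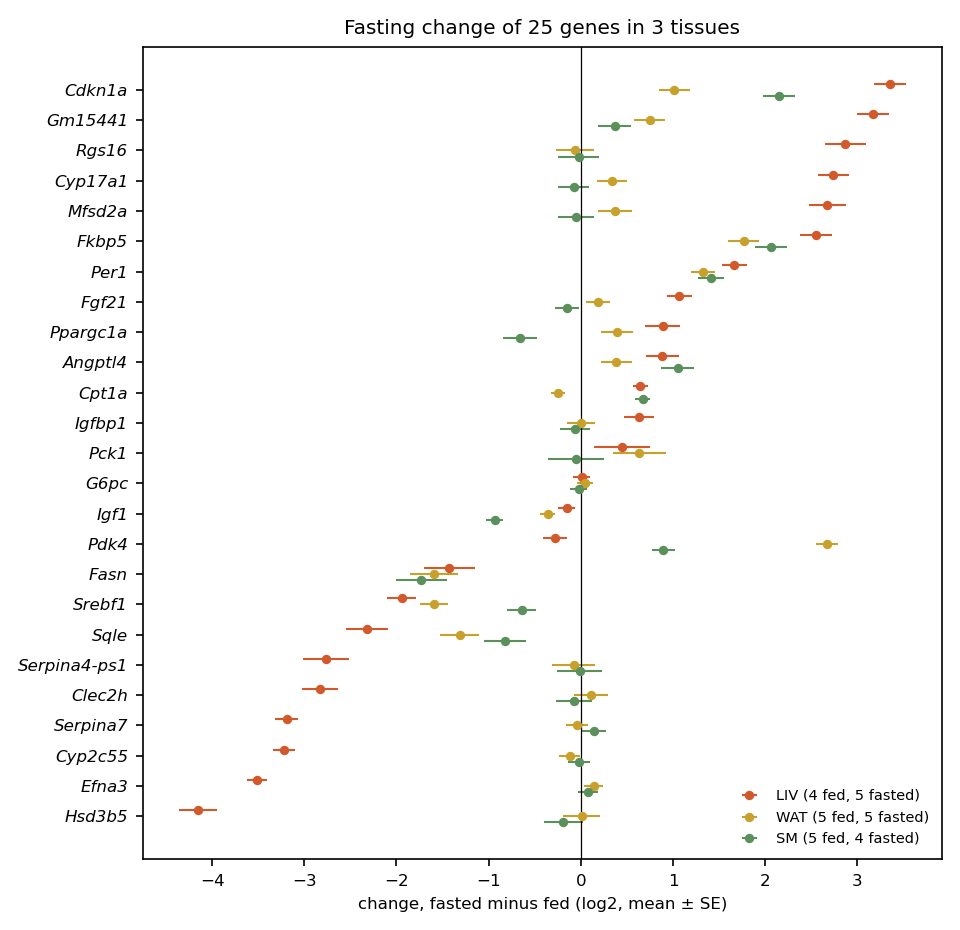
Fasting change (x axis, log2, mean ± SE of the fit) of 25 genes (y axis) in LIV (red; 4 fed and 5 fasted arrays), WAT (yellow; 5 and 5) and SM (green; 5 and 4). The lowest 6 genes, Serpina4-ps1 to Hsd3b5, fell in LIV and lie near 0 in WAT and SM, whereas Per1 and Fasn lie close together in all 3 tissues.

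Some genes varied widely between mice, beside a median SD of 0.105 in fed and 0.117 in fasted LIV. In fed LIV the largest SDs among genes above the median level belonged to Cish, Cabyr, Onecut1, Bcl6, Scarna13, Cyp26a1, Igfbp5 and Phlda1. Phlda1, a growth factor response gene, was like Cish lowest in fed LIV 1, at 7.14 against 8.75, 8.59 and 8.97 in the other fed livers, and Cabyr was high in fed LIV 3 (8.09, against 5.46, 5.87 and 6.55). In fasted LIV the 8 were Snord118, Snord15b, Cyp2a22, Slc15a2, Vaultrc5, Snora61, Derl3 and Lcn2. The small RNA genes among them shared one array: Snord118 stood at 10.51 in fasted LIV 3 and at 8.33, 8.58, 8.84 and 7.95 in the other fasted livers, and Snord15b at 9.48 against 7.18, 7.36, 8.22 and 7.22. Fed LIV 4, the array left out, was higher still (12.14 and 10.87). The peptide transporter gene Slc15a2 was low in fasted LIV 3 at 4.47, against 6.20, 6.75, 6.43 and 6.00.

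Of 264 microRNA genes 8 were raised and 3 lowered, 4.17% beside 7.54% of all genes. The rises included Mir23b (0.54), Mir27b (0.52) and Mir24-1 (0.85), which lie together on chromosome 13 (named after their values were seen). Mir24-1 went from 5.41, 4.95, 5.06 and 5.24 to 5.68, 6.34, 5.84, 6.17 and 6.03, whereas the arrays of Mir23b and Mir27b overlapped. Whole-transcript arrays of this kind measure the precursor transcript rather than the mature RNA. The mature sequences of Mir27b and Mir24-1 in RefSeq (GRCm38.p6, chr13:63300760-63300780 and chr13:63301251-63301272, plus strand) are given with the seed, bases 2 to 8, in capitals, and their seeds differ.

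mmu-miR-27b-3p: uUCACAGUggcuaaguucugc
mmu-miR-24-3p: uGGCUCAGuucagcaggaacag

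Since the spread was estimated over 3 tissues, the fit was repeated on the 9 liver arrays alone. It called 1378 genes, of which 1314 were shared with the 1417 of the fit over all tissues, 64 were called on the liver arrays alone and 103 only in the wider fit. Besides Pck1, the smooth muscle actin gene Acta2 (−0.91) and the intestinal type fatty acid binding protein gene Fabp2 (0.62) were among the 64, and Cish was among the 103 (adjusted p = 0.0501 on the liver arrays alone). So were Angptl8, Cabyr, Creld2, Derl3, G0s2, Hsph1, Igfbp1, Inhbe and Saa2. With fed LIV 4 added to the liver arrays alone, 23 of the called genes named here lost the call, Cish, Onecut1 and Socs2 among them. Of the 57 lists 34 had the same counts in both fits, those of cholesterol synthesis and mitochondrial oxidation among them, and 23 had other counts. Endoplasmic reticulum genes went from 3 raised and 1 lowered to 1 raised and 2 lowered, ketone body genes from 0 to 1 raised and conjugating enzymes from 12 to 14 lowered. Glucocorticoid-induced genes went from 14 to 15 raised and Kupffer cell markers from 8 to 9 lowered.

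Leaving out single arrays ended the call of 23 of the 204 called genes named here. Most widely affected were the calls of Lbp (fed LIV 1, 2 or 3 or fasted LIV 1, 2, 3 or 5 left out, adjusted p up to 0.105), Trp53inp1 (fed LIV 2, 3 or 5 or fasted LIV 1, 2, 3 or 5, up to 0.125), G0s2 (fed LIV 1, 2 or 5 or fasted LIV 2, 3 or 4, up to 0.180), Hsph1 (fed LIV 1, 2 or 5 or fasted LIV 1, 4 or 5, up to 0.219) and Esrrg (fed LIV 2 or 3 or fasted LIV 1, 2, 3 or 5, up to 0.134). The call of Apoa4 was lost without fed LIV 1 or 2 or fasted LIV 1 or 4 (adjusted p up to 0.0683), that of Bhlhe40 without fed LIV 1 or 5 or fasted LIV 2 or 3 (up to 0.126), and that of Mir27b without fed LIV 1 or 2 or fasted LIV 3 or 4 (up to 0.0952). Vnn1 did not pass without fed LIV 2 or 5 or fasted LIV 5 (adjusted p up to 0.0712), Tkt without fed LIV 2 or fasted LIV 4 (up to 0.0716), and Mcm6 without fed LIV 2, 3 or 5 or fasted LIV 1 or 4 (changes of −0.38 to −0.31, adjusted p up to 0.0709). A single array ended the call of Chka (fed LIV 2, adjusted p = 0.0513), Igfbp1 (fed LIV 3, 0.0503), Nr0b2 (fed LIV 3, 0.105) and Per2 (fed LIV 2, 0.0560). Changes of Ppara (0.37 without fasted LIV 4), Aox1 (−0.33 without fasted LIV 4), Aqp7 (0.38 without fed LIV 3), C8a (−0.38 without fasted LIV 2 or 5), Haao (−0.37 and −0.36 without fasted LIV 3 and 4), Mcm5 (−0.36, −0.33 and −0.38 without fed LIV 2 and fasted LIV 3 and 5) and Mtrr (0.37, 0.37 and 0.36 without fed LIV 1 and 5 and fasted LIV 5) fell under 1.3-fold.

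Other genes gained a call when an array was left out, some of them also under other settings. Without fed LIV 1 these were Bcl6, Phlda1 (−0.98, adjusted p = 0.000346), Scarna13 (−0.94), Atf4 (−0.39), Srebf2 (−0.38), Otc (−0.39) and the clock gene Per3 (0.70, adjusted p = 0.0471). Pdk4 passed as lowered without fasted LIV 2 (−0.39, adjusted p = 0.0234). Otc also passed without fed LIV 3 or 5 or fasted LIV 1, 4 or 5, Per3 without fed LIV 5 or fasted LIV 1 or 5, Phlda1 without fasted LIV 4, and Acot11 without fed LIV 3 or fasted LIV 5 (−0.50 and −0.48). The same held for Acta2 (−1.09) and Igfbp5 (−0.88) without fed LIV 3, Marco (−0.42) without fed LIV 2 and Bhlhe41 (0.64) without fed LIV 5.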

How the data were processed

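RNA of whole LIV, WAT and SM was hybridised to Affymetrix mouse gene arrays. The deposited values are log2 expression values, which the authors obtained by RMA (background correction, quantile normalisation and summary of probes) in Partek. The genome build behind them was not given in the sources used here. After quantile normalisation all arrays share their distribution, and a shift of most genes one way would not be seen. Fed LIV 4 and fasted SM 5 were left out, the latter after an earlier analysis of these data, whereas the study's text names fasted SM 1. Group means were fitted to the 28 other arrays with limma 3.58.1 in R 4.3.3, with 22 residual and 4.24 prior degrees of freedom, and tested after empirical Bayes moderation with Benjamini-Hochberg adjustment over 28815 probe sets. Calls needed an adjusted p under 0.05 and 1.3-fold. A gene was represented by its brightest probe set over the 9 LIV arrays. Of the probe sets, 21153 named 1 gene, 1867 several and 5795 none. Differences between tissues were contrasts of the same fit.

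Groups and mouse numbers came from the sample labels. The labels name the arrays of a group biological replicates and do not tie the tissues of a mouse to each other. Tissues of the same mice may therefore not be independent. Members and gene lists were chosen with earlier results of these data known, and named genes were the 15 largest rises and falls without overlap, list members, 25 genes compared between tissues and the 8 most variable genes of each group. Other choices of arrays, pairing, variance model, filter, normalisation and threshold were tried. The fit was tested on simulated data. Figures were drawn with matplotlib 3.10.9 in Python 3.11.15. Arrays carry no read depth, and their number limits the precision. Promoters and microRNAs came from RefSeq (GRCm38.p6).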

Additional observations from a re-analysis of the deposited data

Results flagged for a closer look

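One array lay far from the others of its group in 43 of 574 combinations of a named gene and a group, where chance alone marks about 1 in 20 such groups. Values are log2 levels of that array. In fed LIV 2, these were Plin4 (6.09), Bdh1 (9.76), Arg1 (11.19), Otc (10.95), Mtrr (6.29), Tat (12.15), Bag3 (7.24), Egfr (11.23), Slco1a1 (10.99) and Fmo2 (7.49). Fasted LIV 4 stood apart for Asl (12.02), Scd2 (5.88), Pgd (7.86), Bag3 (8.45), Bhlhe41 (4.95), Mbl1 (9.38), Esrrg (5.54) and Phlda1 (8.41). Fed LIV 3 did so for Cyp2c39 (6.40), Acacb (8.85), Tm7sf2 (10.34), Cyp2e1 (12.71), Il1r1 (8.43), Saa4 (10.21) and F11 (8.50). For fed LIV 1 the genes were Slc37a4 (10.44), Trp53inp1 (10.02), Bcl6 (9.19), Rarb (6.60) and Snord118 (7.54). The values of fed LIV 5 were those of Aacs (8.30), Efna3 (8.69), Gclc (11.45) and Cyp3a11 (11.68). Fasted LIV 2 lay apart for Angptl8 (8.67), Mup20 (12.44), Cyp1a2 (10.79) and Id3 (6.95). Fasted LIV 5 was the distant array for Cyp39a1 (10.57), Bhlhe40 (7.36) and Alas2 (8.58). Fasted LIV 3 was distant for Cyp2c55 (4.54) and fasted LIV 1 for Nr4a1 (5.89).

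Of 50 differences between the fasting change in LIV and that in WAT or SM, 34 passed the interaction test in limma. Differences are given on the log2 scale as LIV minus WAT and LIV minus SM. The change in LIV was lower than in both tissues for Hsd3b5 (−4.16 and −3.96), Efna3 (−3.65 and −3.59), Cyp2c55 (−3.10 and −3.20), Serpina7 (−3.15 and −3.33), Clec2h (−2.94 and −2.75), Serpina4-ps1 (−2.69 and −2.75), Sqle (−1.01 and −1.50) and Pdk4 (−2.95 and −1.18). It was higher than in both for Cdkn1a (2.33 and 1.21), Gm15441 (2.42 and 2.81), Rgs16 (2.93 and 2.89), Cyp17a1 (2.40 and 2.81), Mfsd2a (2.31 and 2.72) and Fgf21 (0.88 and 1.22). From WAT alone the difference passed for Fkbp5 (0.78) and Cpt1a (0.89). From SM alone it passed for Srebf1 (−1.30), Igfbp1 (0.69), Igf1 (0.78) and Ppargc1a (1.55).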

How the results depend on the processing

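With no minimum fold, 2092 probe sets were raised and 1721 lowered, or 1607 and 1299 genes, and with a minimum of 1.5-fold 373 and 452 probe sets, or 277 and 342 genes, by construction of the threshold. Leaving out 1 LIV array gave 811 to 950 raised and 845 to 1268 lowered probe sets, 595 to 706 raised and 664 to 811 lowered genes, and 251 to 273 called list members beside 263. The genes that differed from WAT were 3475 to 3863 and those that differed from SM 3233 to 3744 with 1 LIV array left out. At a false discovery rate of 1%, chosen like the other alternatives of these differences after seeing the data, they were 2561 and 2282. Of 7450 values of the 287 named genes over 26 alternatives none was reversed, 229 lost and 65 gained the call, and 134 of the 204 called genes kept it under every alternative. In another fit at the same thresholds, with no LIV array dropped from those used, 34 of the 204 lost the call in at least 1 fit. The labels do not say whether the mouse numbers pair the samples. Deviations of fed and fasted LIV of the same number had correlations of −0.11 to 0.15, and those of different numbers −0.51 to 0.40. These few values cannot decide whether a number marks something shared. With the number as a replicate block, 835 probe sets were raised and 1113 lowered, or 616 and 677 genes, 252 list members were called, and 3380 and 2992 genes differed from WAT and SM. With the mouse as a random block across tissues, 665 genes were raised and 752 lowered. That fit took arrays of the same diet and number as 1 mouse, which the labels do not state. Genes of dim or very bright signal may be understated in change, and signal over background was not given per array.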
